A study of Nasonia vitripennis x Nasonia giraulti with 6 samples.

Results

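A set of 34 genes had higher RNA levels in hybrid daughters of a Nasonia vitripennis mother than in daughters of the reciprocal cross. They were chosen by a rule on CPM, the count of a gene divided by the summed counts of its library and multiplied by 1000000, with 0.05 added before ratios were taken. A gene was a member when its mean CPM in F1VG, with that addition, exceeded 1, when F1VG replicate 1 was at least 2 times F1GV replicate 1, and when F1VG replicates 2 and 3 were each at least 2 times F1GV replicate 3. The 100 most abundant genes were left out, and 0 genes that met the ratios were lost by this step. The rule took 34 of 12202 genes that met its limits on level (0.279%), out of 16505 genes in the table. Because all 5 libraries were used to select the members, the differences between crosses below describe the members and carry no independent support.

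The samples were whole bodies of adult females, in pools of 10 wasps taken 24 h after emergence. F1VG daughters (3 libraries, replicates 1, 2 and 3) had an N. vitripennis mother of strain AsymCX and an N. giraulti father of strain R16A. F1GV daughters (2 libraries, replicates 1 and 3) had an R16A mother and an AsymCX father, and the replicate 2 library that the study set aside was not analysed here. Estimated counts summed to between 35337246 and 55707560 in F1VG libraries and to 47228640 and 47830030 in F1GV libraries. With 1 strain of each species, a difference between crosses applies to this pair of strains.

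Nasonia are parasitoid wasps whose sons have no father and hold only the mother's chromosomes, while daughters inherit from both parents. Daughters of reciprocal crosses carry the same nuclear alleles, but each allele comes through the mother in one cross and through the father in the other. The crosses also differ in which strain supplied the egg. Whole-body pools average over all tissues, so fewer cells of a type and less RNA per cell cannot be told apart. Genes are named by their identifiers in the official gene set OGS2, because the count table does not pair identifiers with gene names. For that reason what most members do could not be stated, and the exceptions are 3 members that the study annotates, Nasvi2EG018425 and Nasvi2EG016883 in its gene lists and Nasvi2EG017594 in its methylation work.

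The size of the difference varied widely among the members. The smallest of the 3 ratios of a member, F1VG over F1GV, ran between 2.00 and 36.7 with a median of 2.73, and 22 of the 34 had a smallest ratio under 3. It was 4 or more in 8 members. The median ratio of the members was 3.48 in the replicate 1 pair, 3.52 for F1VG replicate 2 and 2.93 for F1VG replicate 3, against 1.002, 1.06 and 1.03 over all 12202 genes. Together the members made up 935, 779 and 583 CPM in F1VG replicates 1, 2 and 3, against 310 and 182 CPM in F1GV replicates 1 and 3. Both sums were highest in replicate 1 of the cross.

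The members had a lower median level than other genes. The mean F1VG level had a median of 5.43 CPM over the members, against 28.8 CPM over the 12202 genes, and 10 members (29.4%) lay under 2 CPM where 9.42% of those genes did. At 50 CPM or more the shares were 11.8% of members and 36.1% of genes. CPM is not scaled by gene length, so an order of genes by CPM, here and below, is an order of read counts and not of transcript abundance. Every F1VG library lay above every F1GV library in 33 of the 34 members, against 5.95% of the 12435 genes tested below, and the rule itself forces most of this count. The exception was Nasvi2EG013431, a gene picked out here after its values were seen, with 1.90, 0.610 and 0.449 CPM in F1VG replicates 1, 2 and 3, against 0.508 and 0.188 CPM in F1GV replicates 1 and 3. Its F1VG replicate 3 lay below its F1GV replicate 1.

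**Figure D1:**
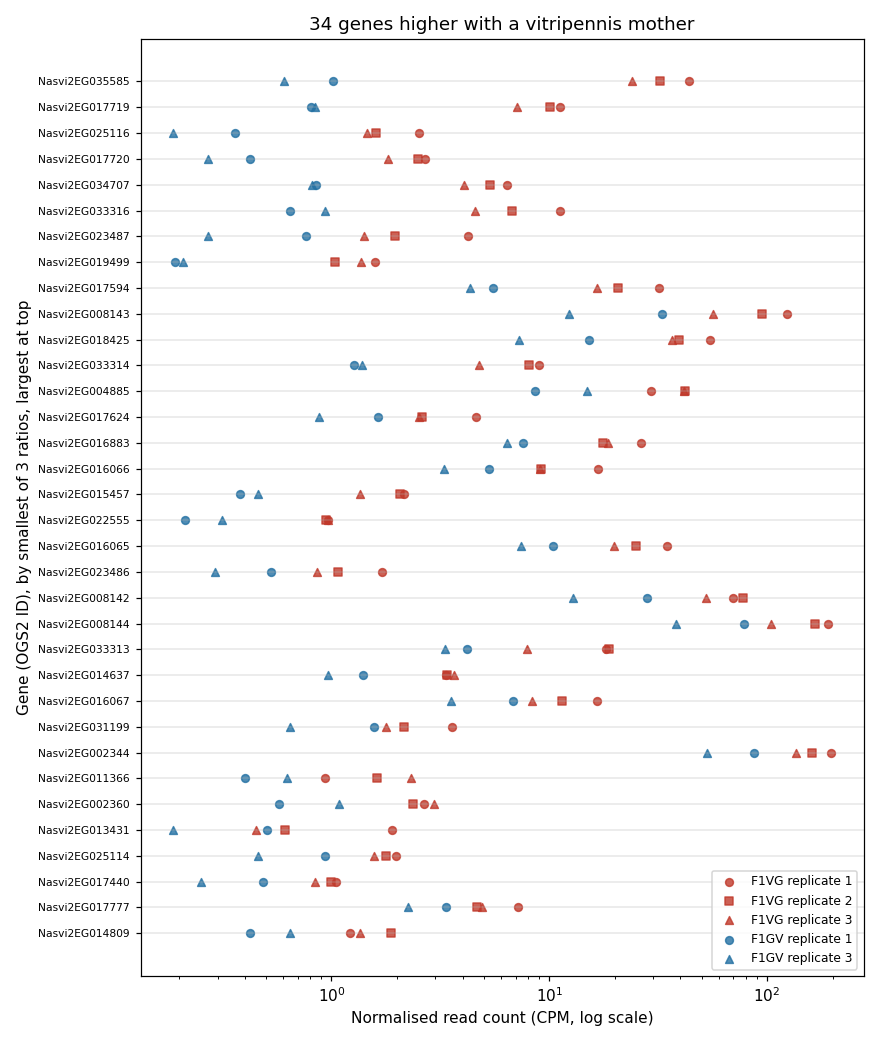
Level of each of the 34 members in each library, in CPM on a log axis, with F1VG libraries in red and F1GV libraries in blue and genes ordered by their smallest ratio. The gap between crosses is widest in Nasvi2EG035585 at the top, where F1VG lay between 24.0 and 43.6 CPM and F1GV at 1.02 and 0.606 CPM, and it narrows to about 2-fold at the bottom.

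Nasvi2EG035585 stood apart from the other members. It had 43.6, 32.1 and 24.0 CPM in F1VG replicates 1, 2 and 3, from 1540, 1265 and 1339 counts, against 1.02 and 0.606 CPM in F1GV replicates 1 and 3, from 48 and 29 counts. Its ratios were 40.9, 49.0 and 36.7 across the 3 pairs, and the fold between cross means was 38.7 (F1VG 33.3 ± 9.82 CPM, SD, n = 3; F1GV 0.811 ± 0.290 CPM, SD, n = 2). The next member, Nasvi2EG017719, had 11.2, 10.1 and 7.09 CPM in F1VG replicates 1, 2 and 3, against 0.805 and 0.836 CPM in F1GV replicates 1 and 3. Its counts were nearly equal among the F1VG libraries, at 397, 396 and 395, so the spread of its CPM follows their totals. Its smallest ratio was 8.06, against 36.7 for Nasvi2EG035585.

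Members with smallest ratios between 3.75 and 6.27 included genes with few counts and genes with many. Nasvi2EG034707 had 6.40, 5.36 and 4.07 CPM in F1VG replicates 1, 2 and 3, against 0.847 and 0.815 CPM in F1GV replicates 1 and 3. The F1GV libraries differed by far less than the gap between the crosses. Nasvi2EG023487 had 4.22, 1.96 and 1.42 CPM in F1VG, against 0.762 and 0.272 CPM in F1GV, and in both crosses its replicate 1 was over 2 times the other libraries. Nasvi2EG017594, shown by the study as the gene Ank2, a name used in flies and mammals for an ankyrin that anchors membrane proteins to the cytoskeleton, had 32.1, 20.8 and 16.6 CPM in F1VG, against 5.53 and 4.35 CPM in F1GV. Nasvi2EG033316 is described below with Nasvi2EG033313, because both had fractional counts.

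The 5 members with the highest F1VG CPM had folds between cross means of 2.33 to 4.05, on both sides of the median of 3.14 over all members. Nasvi2EG002344 had 196, 161 and 136 CPM in F1VG replicates 1, 2 and 3, against 87.4 and 53.2 CPM in F1GV replicates 1 and 3, with ratios of 2.24, 3.03 and 2.55. Its smallest ratio lay close to the limit although it rested on 2545 counts or more in every library. Nasvi2EG008144, Nasvi2EG008143 and Nasvi2EG008142, which carry adjacent identifiers, came next and are described as a run. The fifth, Nasvi2EG018425, is annotated in the study's lists as a mitogen-activated protein kinase kinase kinase, the class of enzyme at the head of a MAP kinase cascade that passes signals on by phosphorylation. It had 54.8, 39.2 and 36.7 CPM in F1VG replicates 1, 2 and 3, against 15.2 and 7.30 CPM in F1GV replicates 1 and 3. Replicate 1 was the highest library of both crosses, and the crosses did not overlap.

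Nasvi2EG018425 is also one of the study's super cis genes, the study's term for genes that used a single species' allele alone in 1 or more of its hybrid samples. Of the 61 such genes, 50 favour the N. vitripennis (Nv) allele and 11 the N. giraulti (Ng) allele. The members included 1 from each list, and the other 32 were in neither. Nasvi2EG018425 belongs to the Ng list. The member on the Nv list was Nasvi2EG016883, annotated as the hypothetical protein LOC100115309, with 26.5, 17.6 and 18.5 CPM in F1VG replicates 1, 2 and 3, against 7.60 and 6.38 CPM in F1GV replicates 1 and 3. By these lists, the favoured allele came through the father in F1VG for Nasvi2EG018425 and through the mother in F1VG for Nasvi2EG016883, and both genes had the higher total level in F1VG. The same rule with the crosses exchanged, which takes genes higher in F1GV, gave 89 of 12138 genes (0.733%), of which 3 were on the Nv list and 0 on the Ng list. The study chose these lists partly in the same libraries, by allelic ratio and not by total count.

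Members that were near-silent in F1GV, meaning under 0.5 CPM in both of its libraries, numbered 6. None was at the floor of 3 counts, which is 0.0635 CPM in F1GV replicate 1 and 0.0627 CPM in F1GV replicate 3. Nasvi2EG017720 had 95, 98 and 101 counts in F1VG replicates 1, 2 and 3, against 20 and 13 counts in F1GV replicates 1 and 3, or 2.69, 2.49 and 1.81 CPM against 0.423 and 0.272 CPM. Nasvi2EG025116 had 89, 63 and 81 counts in F1VG, against 17 and 9 counts in F1GV. Nasvi2EG015457 had 76, 81 and 75 counts in F1VG, against 18 and 22 counts in F1GV. For these 3 genes every F1VG library held 63 counts or more and every F1GV library 22 or fewer.

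The other near-silent members were lower in F1VG as well. Nasvi2EG019499 had 56, 41 and 76 counts in F1VG replicates 1, 2 and 3, against 9 and 10 counts in F1GV replicates 1 and 3. It combined the lowest mean F1GV level of all members, 0.200 CPM, with 1.33 CPM in F1VG. Nasvi2EG017440 had 37, 39 and 47 counts in F1VG, against 23 and 12 counts in F1GV. Nasvi2EG022555 had 34, 37 and 54 counts in F1VG, against 10 and 15 counts in F1GV, and its F1VG levels of 0.962, 0.940 and 0.969 CPM were nearly equal. At such counts the term near-silent describes a low level in F1GV and not absence. With F1GV replicate 1 omitted the number was 10, and this library was the higher F1GV library in 24 of 34 members.

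Near the limit of 2-fold the members did not separate from the genes beyond it. Just inside were Nasvi2EG014809, Nasvi2EG017777 and Nasvi2EG017440, with smallest ratios of 2.00, 2.04 and 2.04. Just outside were Nasvi2EG028793, Nasvi2EG035951 and Nasvi2EG014806, with 1.99, 1.98 and 1.98. Nasvi2EG028793 had 11.1, 7.09 and 6.05 CPM in F1VG replicates 1, 2 and 3, against 3.09 and 3.01 CPM in F1GV replicates 1 and 3, so a single pair kept it out. Ratios ran on without a gap across the limit.

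Runs of adjacent identifiers held a large share of the members. Identifier numbers that differed by 1 placed 12 of the 34 members (35.3%) in 5 runs, against 8 of 89 genes (8.99%) in 4 runs under the rule for F1GV. Of the 22 genes that met the level limits and stood next to a member in number, 12 were members (54.5%), where members were 0.279% of such genes in all. For the rule for F1GV the shares were 11.6% and 0.733%. Allowing a gap of 2 in number gave 6 runs with 15 of the 34 members (44.1%), against 7 runs with 16 of 89 genes (18.0%) for F1GV. Whether neighbours in number are neighbours in the genome, or near-identical copies that could share reads, was not tested.

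**Figure D2:**
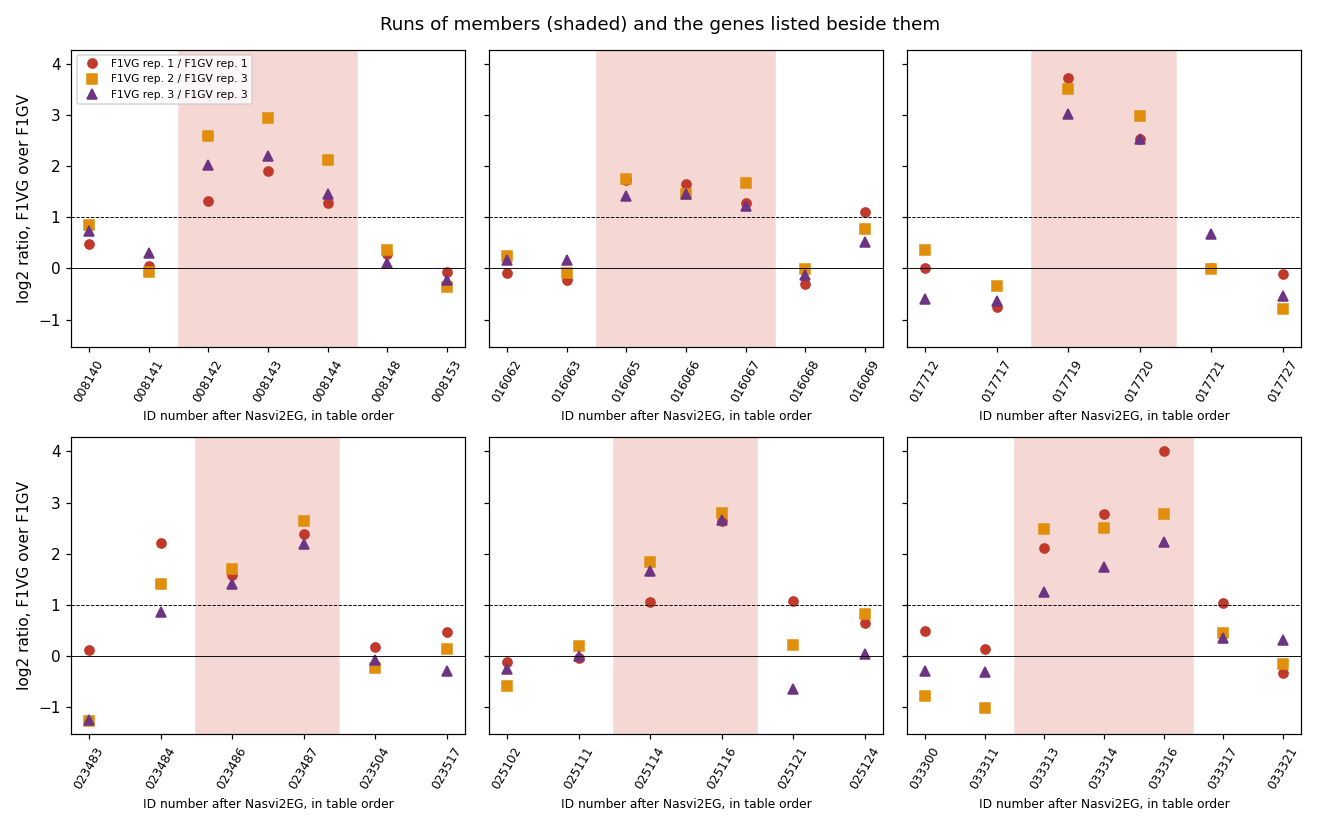
Ratio of F1VG to F1GV on a log2 scale for the members of 6 runs (shaded, gaps of up to 2 in number allowed) and for the genes listed on either side in the count table, with 1 symbol for each pair of libraries. The dashed line is the 2-fold limit, which all shaded genes exceed in all 3 pairs, while 0 of the unshaded genes do so and Nasvi2EG023484 exceeds it in 2 pairs.

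The run with the most counts was Nasvi2EG008142, Nasvi2EG008143 and Nasvi2EG008144. Nasvi2EG008143 had 123, 95.0 and 56.2 CPM in F1VG replicates 1, 2 and 3, against 32.8 and 12.3 CPM in F1GV replicates 1 and 3. Nasvi2EG008144 had 191, 165 and 104 CPM in F1VG, against 78.7 and 38.3 CPM in F1GV. Nasvi2EG008142 had 70.0, 77.6 and 52.4 CPM in F1VG, against 28.2 and 12.9 CPM in F1GV. In all 3 genes F1GV replicate 1 was over 2 times F1GV replicate 3, and the ratio was lowest in the replicate 1 pair and highest for F1VG replicate 2. The gene before the run, Nasvi2EG008141, had ratios of 1.04, 0.953 and 1.24, and the one before that, Nasvi2EG008140, had 1.39, 1.81 and 1.67.

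The run Nasvi2EG016065, Nasvi2EG016066 and Nasvi2EG016067 showed ratios within a narrower range. Nasvi2EG016065 had 34.8, 25.1 and 19.9 CPM in F1VG replicates 1, 2 and 3, against 10.4 and 7.40 CPM in F1GV replicates 1 and 3. Nasvi2EG016066 had 16.8, 9.12 and 9.08 CPM in F1VG, against 5.31 and 3.28 CPM in F1GV. Nasvi2EG016067 had 16.6, 11.5 and 8.31 CPM in F1VG, against 6.80 and 3.55 CPM in F1GV. Over the 3 genes and 3 pairs the ratios lay between 2.32 and 3.38, and replicate 1 was the highest library of its cross for each gene. The next identifier, Nasvi2EG016068, had ratios of 0.812, 0.988 and 0.918.

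Nasvi2EG017719 and Nasvi2EG017720, both described above, formed a run with ratios between 5.78 and 13.2. The genes listed on either side of them, Nasvi2EG017717 and Nasvi2EG017721, were under 1 CPM in every library of both crosses. The run of Nasvi2EG033313 and Nasvi2EG033314, with Nasvi2EG033316 beside it, requires care because of how its reads were counted. Nasvi2EG033313 and Nasvi2EG033316 were the only 2 members with fractional counts, and the sum of both genes was whole (within 0.0005) in each of the 5 libraries, as it would be if reads were shared between them. Their summed level was 29.4, 25.5 and 12.5 CPM in F1VG replicates 1, 2 and 3, against 4.83 and 4.24 CPM in F1GV replicates 1 and 3, with ratios of 6.03, 5.95 and 2.92. The sum was therefore higher in F1VG however the reads were divided, while the value of each gene depends on the division. Nasvi2EG033314, which had whole counts, had 8.999, 8.03 and 4.74 CPM in F1VG, against 1.27 and 1.38 CPM in F1GV.

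Genes that the rule left out but that lay within 5 numbers of a member were examined as a further description, chosen after the runs had been seen. Of 72 such genes that met the level limits, 4 (5.56%) had all 3 ratios at 1.5 or more, against 65 of 12096 (0.537%) elsewhere. For the rule for F1GV the shares were 12 of 297 (4.04%) and 0.723%. The 4 genes were Nasvi2EG002346, Nasvi2EG002361, Nasvi2EG014806 and Nasvi2EG023484. Nasvi2EG002346, 2 numbers from Nasvi2EG002344, had ratios of 1.95, 2.38 and 2.20 and missed the limit in the replicate 1 pair. Nasvi2EG023484, 2 numbers from Nasvi2EG023486, had ratios of 4.63, 2.66 and 1.82 and missed it for F1VG replicate 3.

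The rule joins limits on separate sets of libraries, since the replicate 1 pair shares no library with the other pairs. The counts at each limit are given as a description only. Of the 12202 genes, 204 (1.67%) were at least 2-fold higher in F1VG in the replicate 1 pair, and 51 (0.418%) were so in both other pairs. The 34 members are by definition the genes in both, 16.7% of the 204 and 66.7% of the 51. In the opposite direction, 22 of the 204 (10.8%) were at least 2-fold lower in F1VG in both other pairs, where 1.79% of all 12202 genes were. With F1GV replicate 3 omitted, the rule rests on the replicate 1 pair alone and takes all 204 genes. Without any one of the other libraries it takes between 39 and 51 genes.

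**Figure D3:**
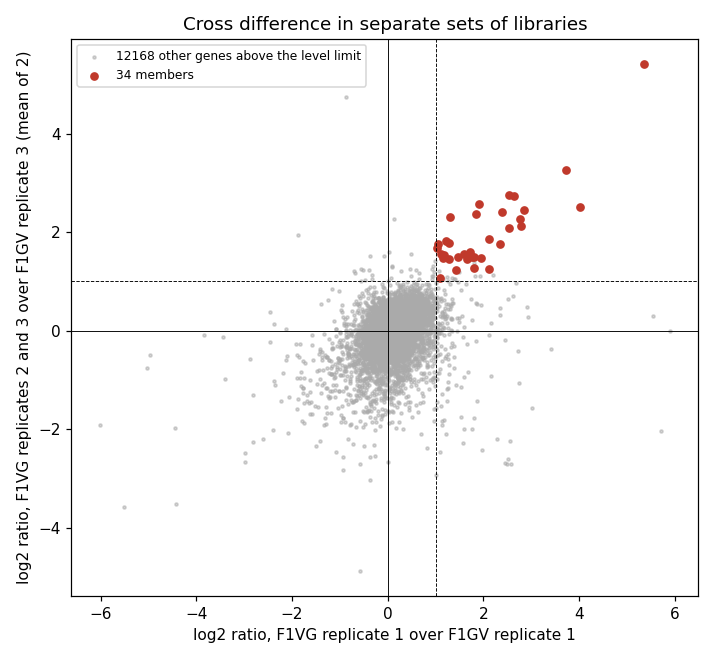
Ratio of F1VG to F1GV on a log2 scale in the replicate 1 pair (horizontal) and as the mean of the other 2 pairs (vertical) for 12202 genes, with the 34 members in red and dashed lines at 2-fold. The members fill the upper right because they were selected there, and grey points to the right with negative vertical values include the 22 genes that were 2-fold higher in one set and 2-fold lower in the other.

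All genes with a mean above 1 CPM in either cross, 12435 in number, were then fitted with edgeR. Of the members 31 were tested, while Nasvi2EG022555, Nasvi2EG013431 and Nasvi2EG017440 fell below this limit without the added 0.05. With the cross as the only term, edgeR's quasi-likelihood test called 0 of 31 members at an adjusted p under 0.05 (0% of all genes were called higher), and limma voom likewise called 0, with the lowest edgeR adjusted p, 0.0636, for Nasvi2EG035585. At an unadjusted p under 0.05 there were 30 of 31 members, against 0.659% of genes. DESeq2 called 18 members (0.169% of genes) and edgeR's exact test called 16 (0.137% of genes) on the same design. The tests use the contrast that selected the members, so these counts are descriptive.

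The fit that matches the pairing of the rule has a second term for replicate 1 against replicates 2 and 3. In it edgeR called 19 of 31 members (61.3%) higher in F1VG, where 0.169% of all genes were called higher. These calls depend on a level shared by replicate 1 of both crosses. With a term for each replicate number instead, edgeR called 3 members, Nasvi2EG035585, Nasvi2EG008143 and Nasvi2EG008144, beside 4 of 12435 genes called higher in all. F1VG replicate 2 has no F1GV partner in that fit and adds nothing to the cross difference. The fit also has more terms on the same libraries, which leaves fewer degrees of freedom for error. At an unadjusted p under 0.05 in its quasi-likelihood test there were 31 members, beside 711 of 12435 genes higher in F1VG. For all 31 the log2 fold change was above 0 there, a direction that the rule largely fixes in advance. The biological coefficient of variation was 0.148 with the replicate 1 term, 0.146 with a term for each replicate number and 0.348 with the cross alone. With the replicate 1 term, log2 fold changes of the 31 members ran between 1.05 and 5.44, with a median of 1.66. The median absolute value over all genes was 0.12. Nasvi2EG035585 was highest at 5.44 ± 0.22 (SE, edgeR adjusted p = 0.000624), followed by Nasvi2EG017719 at 3.52 ± 0.27 (edgeR adjusted p = 0.00892) and Nasvi2EG033316 at 3.23 ± 0.41 (edgeR adjusted p = 0.0329). The super cis genes Nasvi2EG018425 and Nasvi2EG016883 had 2.103 ± 0.16 and 1.59 ± 0.16, with edgeR adjusted p of 0.00841 and 0.0141. Among the 12 members not called were Nasvi2EG008142 at 1.84 ± 0.27 (edgeR adjusted p = 0.0554) and Nasvi2EG016067 at 1.35 ± 0.19 (edgeR adjusted p = 0.0502), each beside 2 called members of its run. The other 2 genes called higher in F1VG were no members, Nasvi2EG002346 at 1.06 ± 0.10 and Nasvi2EG020489 at 0.91 ± 0.13.

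The rule set no limit on the difference between replicate 1 and replicates 2 and 3, which was tested in the same fit. It did use the same libraries, and F1GV replicate 3 was the divisor for both F1VG replicates 2 and 3. A low F1GV replicate 3 therefore helped a gene to pass more often than a low F1GV replicate 1. The counts below are not free of the selection and describe the members. Of the 31 members, 11 (35.5%) were called higher in replicate 1 at an edgeR adjusted p under 0.05, where 24.7% of all genes were. The 11 include members of the same runs, Nasvi2EG008143 with Nasvi2EG008144, and Nasvi2EG016065 with Nasvi2EG016066 and Nasvi2EG016067. Such neighbours may not vary independently. Only 2 members (6.45%), Nasvi2EG011366 and Nasvi2EG004885, were called lower in replicate 1, where 29.3% of all genes were. The median log2 fold change, replicate 1 over replicates 2 and 3, was 0.41 over the members and −0.03 over all genes, and it was above 0 in 26 of 31. In absolute size the medians were 0.49 and 0.47. Scaled by total counts in place of TMM, 16 members were called higher and 2 lower, beside 4045 genes higher and 3098 lower where TMM gave 3077 and 3639, and the medians were 0.54 over the members and 0.11 over all genes. The number of members called in either direction was 13 with all libraries, 6 without F1VG replicate 1, 17 without F1VG replicate 2, 8 without F1VG replicate 3, 5 without F1GV replicate 1 and 6 without F1GV replicate 3. Calls over all genes were also fewer in the 4 fits with fewer members called, such as 2321 higher and 3185 lower without F1VG replicate 3. Without F1VG replicate 1 the fold change was above 0 in 20 of 30 members. The labels do not say how libraries were divided over batches, so what sets replicate 1 apart was not tested.

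Members differed in how far they varied between replicates. Among the members called between replicates, Nasvi2EG023487 had the largest difference, 1.25 ± 0.24 on the log2 scale (edgeR adjusted p = 0.00716), with 149, 77 and 79 counts in F1VG replicates 1, 2 and 3, against 36 and 13 counts in F1GV replicates 1 and 3. Nasvi2EG031199 had 0.88 ± 0.22 and Nasvi2EG008143 had 0.87 ± 0.24, followed by Nasvi2EG017624 at 0.73 ± 0.19 and Nasvi2EG016067 at 0.69 ± 0.18. The members called lower in replicate 1 were Nasvi2EG011366, at −1.07 ± 0.32, and Nasvi2EG004885, at −0.75 ± 0.13 (edgeR adjusted p = 0.0302 and 0.00490). Nasvi2EG004885 had 29.4, 42.1 and 41.4 CPM in F1VG replicates 1, 2 and 3, against 8.62 and 14.8 CPM in F1GV replicates 1 and 3. Nasvi2EG011366 had 33, 64 and 129 counts in F1VG, against 19 and 30 counts in F1GV. In both genes replicate 1 was the lowest library of its cross.

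The smallest differences called between replicates were 0.40 ± 0.11 in Nasvi2EG002344, 0.44 ± 0.15 in Nasvi2EG016065 and 0.54 ± 0.18 in Nasvi2EG035585. In all 31 tested members the absolute log2 difference between crosses exceeded that between replicates, a relation that the rule favours. F1VG replicate 1 was the highest F1VG library in 26 of the 34 members and F1VG replicate 3 the lowest in 25. Replicate 1 was highest in both crosses in 21 members and in neither in 5. These counts used CPM without TMM factors, which were 1.056 and 1.054 in replicate 1 of F1VG and F1GV, against 0.937 to 0.996 in the other libraries. The same counts over all genes were not made.

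**Figure D4:**
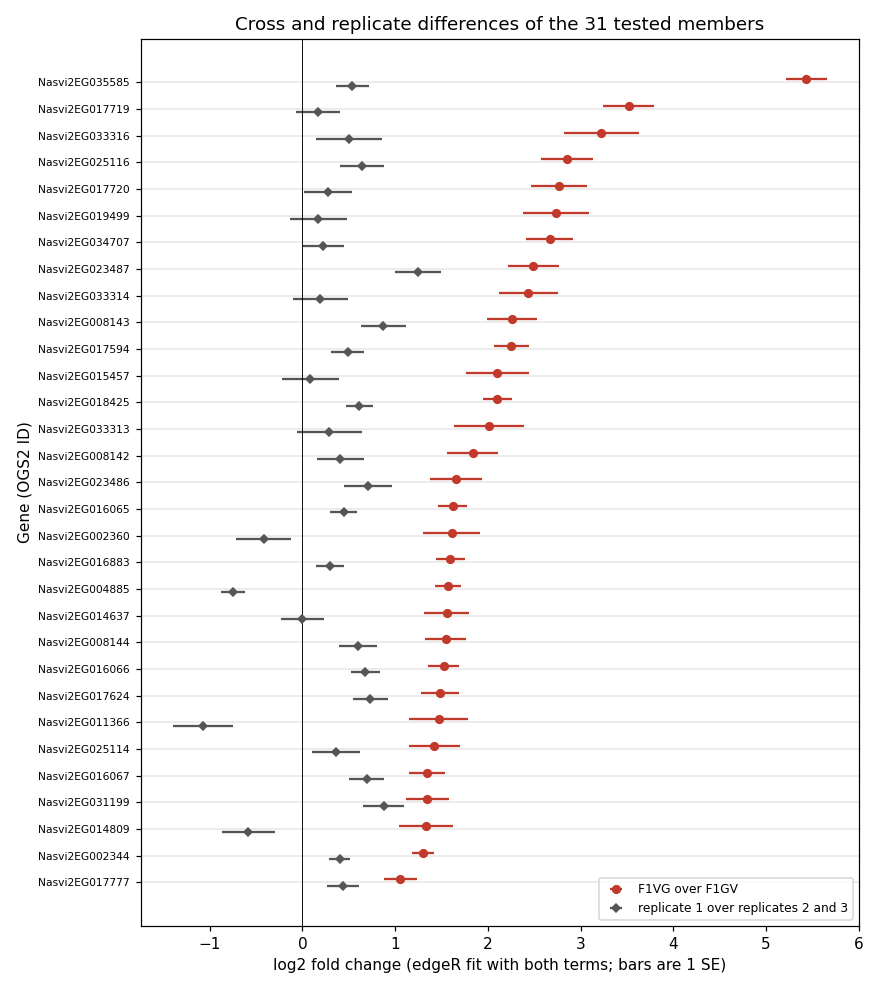
Log2 fold change of the 31 tested members from the edgeR fit with both terms, F1VG over F1GV as red circles and replicate 1 over replicates 2 and 3 as grey diamonds, with bars of 1 SE. The differences between crosses run between 1.05 and 5.44 and lie to the right of the replicate differences of the same gene, of which 26 of 31 are above 0.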

How the data were processed

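Total RNA was extracted from pools of 10 whole-body females, and TruSeq libraries were made from 2 µg of it. The authors trimmed reads, aligned them to both species' genomes with TopHat2 2.0 and summarised them over OGS2 genes, with Cufflinks 2.1.0 among the tools named in their processing notes. Strand use is not given in the sources used here. The authors deposited estimated counts for each gene without any scaling, and these were rounded for count tests. Genes in pairs that share reads depend on how these were divided.

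Groups and replicates came from the sample titles. CPM used column sums. edgeR 4.0.16 (R 4.3.3) was fitted with TMM factors, quasi-likelihood F tests and Benjamini-Hochberg adjustment over 12435 genes at 0.05, beside DESeq2 1.42.0 and limma 3.58.1, after tests on simulated data. Standard errors derive from the F statistic. Alternatives changed scaling, filters, fold limits, pseudocounts, tools and libraries. Members, lists and rules were chosen with earlier results of these data known. Genes were named by size of ratio, level, near-silence in F1GV, runs, super cis lists, closeness to the limit and replicate difference, and any other named gene was picked after its values were seen. The gene table given (Nvit_psr_1.1) matched 0 OGS2 identifiers, so no position or sequence is given. Counting floors cover counting error only, since reads carried no molecular identifiers.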

Additional observations from a re-analysis of the deposited data

How the results depend on the processing

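The 34 members became 19 with 1 CPM added in place of 0.05, 103 at a 1.5-fold limit, 12 at a 3-fold limit, 18 at a mean F1VG level above 5 CPM and 15 when every F1VG library had to be 2 times every F1GV library. Leaving out each library in turn gave 39 to 204, with 204 only without F1GV replicate 3. The counts of genes higher in both replicate sets, 103 and 12 at these fold limits, are the same by definition. TMM scaling gave 32 and thinning to one depth gave 38. With the cross alone, 0 members were called by edgeR and by limma voom, but 1 with genes above 10 CPM, 18 by DESeq2 and 16 by the exact test. Over all genes, the last settings called 1 of 8743, 21 of 12434 and 17 of 12435 higher, in the same order. A replicate block gave 3 members (Nasvi2EG035585, Nasvi2EG008143 and Nasvi2EG008144), beside 4 of 12435 genes called higher in all. Deviations of same-numbered libraries from the mean of their cross correlated at 0.828 for replicate 1 and 0.763 for replicate 3. With only 2 F1GV libraries their deviations are equal and opposite, so both values rest on the same F1GV difference. They cannot show that numbers mark pairs, although the rule and the replicate 1 term tie libraries by number. With the replicate 1 term, 19 called members (21 of 12435 genes in all) became 7 above 10 CPM, where 13 were tested (8 of 8743 genes). With the same term DESeq2 called 27 members (129 of 12435 genes higher) and limma voom called 19 (20 of 12435 genes). In edgeR, total counts gave 24 (34 of 12435 genes) and relative log expression factors gave 23 (30 of 12435 genes). Without a filter on low counts 23 of 34 members were called (31 of 16500 genes). The 19 became 27 without F1VG replicate 2 (75 of 12401 genes) and 23 without F1VG replicate 3 (35 of 12431 genes). Without any other library the cross difference rests on 1 F1GV library, so no count is given for those fits. Calls between replicates, 13 in all, became 6 above 10 CPM and 5 to 17 when each library was left out. Near-silent members, 6 in all, were 15 under 1 CPM, 0 under 0.1 CPM, 0 at no more than 3 counts, and 8 and 10 with a single F1GV library. No tested member changed direction between crosses in the fits with the replicate 1 term, but the rule largely fixes this direction in advance. The replicate difference changed sign in 17 of 353 values, in 8 members, none of them called. The rule set no limit on it but used the same libraries. The causes were not tested. Depth limits the near-silent members, which had 9 to 23 counts in F1GV libraries.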
